A study of Sus scrofa with 8 samples.

Results

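The chromatin around MDM2, CDKN1A, CDKN1B, CDKN2C, RB1, GADD45A, BBC3 and BAX was examined in pig embryonic fibroblasts (PEFs). These 8 genes of the p53 pathway and of cell cycle arrest were picked by name, by a rule that uses no measured value but with earlier results of these data known, from the 19487 protein-coding genes that RefSeq places on chromosomes 1 to 18 and X of Sscrofa11.1. Peaks were collected within 1 kb of the transcription start site (TSS, the 5′ end of the RefSeq gene), in the gene body and up to 50 kb on either side. The PEFs were isolated from Large White fetuses 35 days old and kept in culture for 24 h, with no genotype, drug or DNA damage named, so no group was compared with a treated one. ChIP-seq was done for H3K4me3, H3K27ac and CTCF with 2 replicates each, which gave 6 lists of peaks, and the 2 input samples have no list used here. A primary culture from dissociated fetuses can hold more than 1 kind of cell, and nothing in the labels says whether the replicates were separate cultures or animals.

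p53 is a transcription factor that is kept scarce in unstressed cells because the ubiquitin ligase MDM2 marks it for degradation. When DNA is damaged p53 accumulates and turns on its target genes, of which some stop the cell cycle and others start apoptosis, while MDM2, also a target, closes a feedback loop. Inhibitors of cyclin-dependent kinases act at the same checkpoint as RB1, which holds E2F factors inactive until cyclin-dependent kinases phosphorylate it. H3K4me3 marks promoters, H3K27ac marks active promoters and enhancers, and CTCF is a DNA-binding protein at loop anchors and domain boundaries. Neither p53 binding nor RNA is measured by these lists.

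All 8 genes carried H3K4me3 at the TSS in both replicates, against 68.9% of protein-coding genes. The same 8 carried H3K27ac in both, against 60.7% of protein-coding genes, and both histone marks together occurred at 58.9% of them. CTCF lay within 1 kb of the TSS in both replicates at 2 of the 8, MDM2 and CDKN2C, against 17.9% of protein-coding genes, and these were also the genes with all 3, which 14.4% of protein-coding genes had. The peaks of these genes were also wide. Their median H3K4me3 width at the TSS was 6.24 kb in replicate 1 and 6.42 kb in replicate 2. The median was 2.75 kb and 2.91 kb for protein-coding genes with such a peak. The median fold enrichment of the 8, in contrast, was close to that of the other genes for H3K4me3, at 56.5 and 25.5 against 52.0 and 25.2. For H3K27ac it was higher, at 23.1 and 31.2 against 16.4 and 19.2, and the median H3K27ac width was 7.34 and 8.01 kb against 2.45 and 2.43 kb. These differences describe 8 chosen genes and were not tested.

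The 2 replicates differed in scale. H3K4me3 fold enrichment (the signal at the peak summit over the control) was higher in replicate 1 than in replicate 2 at all 8 genes, as was the median over protein-coding genes, whereas H3K27ac was higher in replicate 2 at 7 of the 8. Values were therefore also ranked within each library, as a percentile among the protein-coding genes with a TSS peak there. The deposited lists hold between 37932 and 81164 peaks and no read counts, which leaves the number of reads under each peak unknown. As a check of the cell type, 8 of 8 fibroblast markers, such as COL1A1 and VIM, had H3K4me3 and H3K27ac at the TSS in both replicates. Of 10 markers of epithelial, endothelial, blood, neural and muscle cells, 5 had H3K4me3 in both (EPCAM, CDH1, NEUROD1, MYOD1 and MYF5, at a fold enrichment between 5.42 and 42.7) and 0 had H3K27ac in either replicate. H3K4me3 fold enrichment did not separate the 2 sets of markers. The fibroblast marker FN1 stood at 3.13 and 5.38, below each of those 5, with H3K27ac at 30.5 and 7.46. EPCAM, at 42.7 and 20.6, was above VIM in replicate 1 (39.1) and below it in replicate 2 (45.9).

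The sequence that p53 recognises consists of a pair of 10-base units. Each unit has purines at positions 1 to 3, C at 4, A or T at 5 and 6, G at 7 and pyrimidines at 8 to 10. Regions marked in both replicates (overlapping peaks merged) were searched for 20 bases that keep C and G at these positions in both units and differ from the pattern at 3 or fewer bases. Of the 8 genes, 7 had at least 1 such match inside an H3K4me3 or H3K27ac region of their window, against 41.3% of protein-coding genes, and CDKN2C had none. In all of the windows but that of RB1, H3K27ac peaks covered a larger share than in the median protein-coding gene in both replicates, and the part of this in the count was not tested. For the 5 genes that p53 is best known to activate, the matches with 2 or fewer differences in the region covering the TSS are shown, and for BBC3 its only match in a marked region, written on the strand of the gene with positions 4 to 7 of each unit in capitals.
MDM2, intron 1, 0.788 kb after the TSS (chr5:33106505-33106524): ggtCAAGttcggaCAAGttc
CDKN1A, upstream, 2.525 kb before the TSS (chr7:32352251-32352270): gaaCATGtcctaaCATGttg
CDKN1A, upstream, 9.59 kb before the TSS (chr7:32345187-32345206): aggCAAGcccgggCAAGgcc
GADD45A, intron 3, 1.63 kb after the TSS (chr6:144942439-144942458): gaaCATGtctaagCACGttg
GADD45A, past the 3′ end, 4.71 kb after the TSS (chr6:144939360-144939379): ggcCTTGtttagaCTTGtgt
BBC3, intron 1 in 2 of 4 transcripts, 0.964 kb after the TSS (chr6:53045919-53045938): ctgCAAGtcccgaCTTGtcc
BAX, intron 1, 0.365 kb after the TSS (chr6:54222706-54222725): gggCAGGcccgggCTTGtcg

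The MDM2 match and the CDKN1A match at 9.59 kb differed from the pattern at 1 base. The nearer CDKN1A match, both GADD45A matches and the BAX match differed at 2 bases, and the BBC3 match differed at 3. Matches with 3 differences, not shown, also lay 0.733 kb after the TSS of MDM2 and 0.566 kb after that of CDKN1A. All 7 shown lay inside the merged H3K27ac region that covered the TSS of their gene. In replicate 2, however, the H3K27ac peak at the TSS of GADD45A ended at 3.30 kb, short of the match at 4.71 kb. MDM2 held another match with 1 difference, 10.01 kb before its TSS, in an H3K27ac region apart from the promoter. CDKN1B had 2 matches with 3 differences, 0.678 and 4.96 kb before the TSS, and RB1 had 1 with 3 differences, in intron 23. Across the 66 H3K27ac regions of the 8 windows there were 6.57 matches per 100 kb, compared with 3.86 in all 61478 such regions of the genome. Counting matches with 2 or fewer differences, the values were 3.07 and 1.04. In the 42 H3K4me3 regions they were 5.85 against 3.52, and 2.92 against 0.741 with 2 or fewer differences. The CDKN1A window was the densest, with 11 matches in 109.0 kb, of which 3 lay in marked regions. The genes were picked for their place in the p53 pathway, so these counts describe them and were not tested, and a match is a likeness in letters, not a site shown to be bound.

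**Figure D1:**
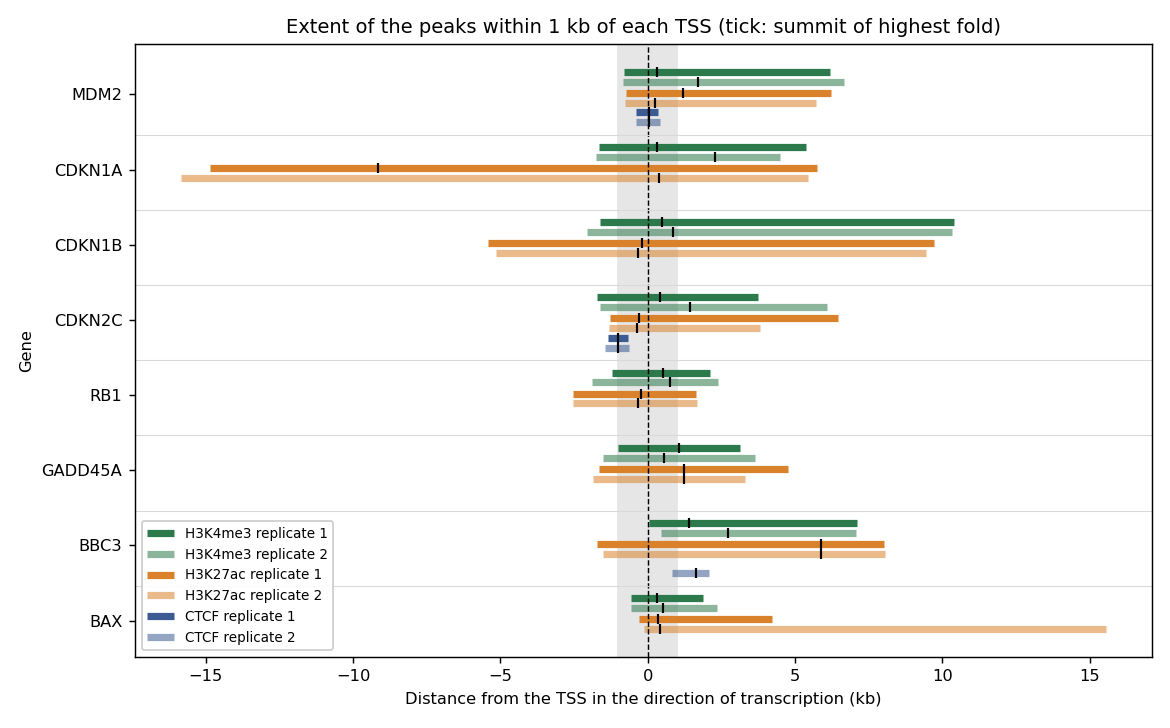
Peaks within 1 kb of each TSS, drawn as bars from the start to the end of the peaks along the distance from the TSS (kb, transcription to the right), with 1 row per library, a tick at the summit and grey for the 1 kb on either side of the TSS. H3K27ac at CDKN1A reached about 15 kb upstream in both replicates, H3K4me3 at CDKN1B about 10 kb downstream, and the H3K4me3 peak of BBC3 began after the TSS.

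MDM2, the ligase that holds p53 down, lies at chr5:33105717-33137602 on the plus strand. Its TSS peaks extended almost only into the gene. H3K4me3 covered 7.01 kb in replicate 1 and 7.51 kb in replicate 2, from 0.814 and 0.841 kb before the TSS to 6.19 and 6.67 kb after it. H3K27ac covered 6.95 and 6.47 kb over nearly the same stretch. The H3K4me3 fold enrichment was 46.9 and 31.4, at percentiles 40.4 and 74.9, so that the replicates placed it on opposite sides of the median. The width stood at percentiles 96.6 and 96.1.

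MDM2 was the only one of the 8 with a CTCF peak over the 5′ end of the RefSeq gene. At BBC3, a CTCF peak covered the transcript start 1.93 kb into the gene in both replicates. The fold enrichment at MDM2 was 30.0 and 33.3 (percentiles 81.6 and 80.3), with the summit 33 and 51 bases after the TSS. The 250 bases before the TSS (chr5:33105467-33105716, plus strand, Sscrofa11.1) are shown because this promoter held 5 GC boxes, GGGCGG on either strand, in capitals.
MDM2 promoter: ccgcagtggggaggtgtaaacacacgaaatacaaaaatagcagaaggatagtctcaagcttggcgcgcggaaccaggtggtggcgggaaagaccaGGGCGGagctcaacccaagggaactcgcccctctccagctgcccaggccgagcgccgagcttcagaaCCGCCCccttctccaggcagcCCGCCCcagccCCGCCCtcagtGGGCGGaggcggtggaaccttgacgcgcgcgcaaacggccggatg

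No other RefSeq TSS lies within 50 kb of MDM2. The window nevertheless held 6 shared H3K27ac regions away from the promoter, 2 upstream and 4 in introns. The longest, 5.88 kb, lay 12.1 to 6.26 kb upstream with a fold enrichment of 9.86 and 8.72 and contained the match 10.01 kb before the TSS. The intronic regions were weaker, between 2.39 and 4.62.

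CDKN1A encodes p21, the cyclin-dependent kinase inhibitor through which p53 stops the cell cycle, and lies at chr7:32354776-32363771 on the plus strand. It had the widest H3K27ac peak of the 8, at 20.6 kb in replicate 1 and 21.3 kb in replicate 2, ranked 62nd and 57th among protein-coding genes. The peak ran from 14.9 and 15.8 kb upstream to 5.74 and 5.44 kb past the TSS. It therefore took in both upstream p53-like matches. Its highest point differed between replicates, 9.17 kb before the TSS in replicate 1 and 0.384 kb after it in replicate 2, with a fold enrichment of 43.4 and 35.9. A separate H3K4me3 region lay 10.7 to 7.96 kb upstream, at 14.9 and 10.3, with no RefSeq TSS at it. H3K4me3 at the TSS itself covered 6.997 and 6.22 kb with a middling fold enrichment of 50.5 and 22.2 (percentiles 46.9 and 37.9). The 250 bases before the TSS (chr7:32354526-32354775, plus strand) are shown to set this promoter beside that of MDM2, with its 2 GC boxes in capitals.
CDKN1A promoter: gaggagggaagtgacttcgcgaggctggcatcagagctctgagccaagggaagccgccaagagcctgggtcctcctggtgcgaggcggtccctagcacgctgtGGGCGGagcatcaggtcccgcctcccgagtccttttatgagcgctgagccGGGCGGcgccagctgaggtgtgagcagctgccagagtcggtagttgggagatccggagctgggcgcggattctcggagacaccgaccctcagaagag

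Further upstream of CDKN1A, in the lncRNA LOC102161912 that is transcribed away from it, 6 more shared H3K27ac regions lay between 42.1 and 16.4 kb from the TSS. The strongest of them, centred 28 kb upstream, reached 13.3 and 21.4. The TSS of this lncRNA had no H3K4me3 peak, and neither had that of RAB44, the other gene with a TSS in the window. Peaks of H3K27ac covered 37.6% and 41.7% of the CDKN1A window, compared with a median of 7.14% and 7.38% for protein-coding genes.

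CDKN1B encodes p27, an inhibitor of the same family that is regulated mainly at the protein level, and lies at chr5:59731224-59735831 on the minus strand. Its H3K4me3 peak was the widest of the 8, at 12.0 and 12.4 kb, ranked 57th and 88th among protein-coding genes. It spanned the whole gene of 4.61 kb and ended 10.4 and 10.3 kb after the TSS, past the TSS of the lncRNA LOC110260737 at 7.84 kb. The fold enrichment at its summit was nevertheless among the lower ones, at 39.3 and 23.0 (percentiles 28.3 and 41.1). H3K27ac covered 15.1 and 14.6 kb and was strong in both replicates, at 34.1 and 37.9 (percentiles 94.9 and 93.4). CDKN1A and CDKN1B stood first and second of the 8 by mean H3K27ac percentile. The first place of CDKN1A rests on replicate 1, at percentile 99.2, where its summit lay 9.17 kb before the TSS. The CDKN1B replicates lay above those of each of the other 6 genes, whereas replicate 2 of CDKN1A, at 91.2, overlapped with BAX. Inside GPR19, from 18.1 kb to 15.6 kb upstream of CDKN1B, lay an H3K4me3 region at 40.2 and 30.1, over the values of CDKN1B itself. The 5′ end of GPR19 had no H3K4me3 peak, and other transcript starts of GPR19, if any, were not examined.

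CDKN2C encodes p18, an inhibitor of the kinases that pair with D-type cyclins, and lies at chr6:161160290-161166681 on the minus strand. It was the lowest of the 8 by H3K27ac, at 11.5 and 17.4 (percentiles 28.8 and 44.3), and the replicates did not overlap with those of the next gene. The H3K4me3 fold enrichment was 61.1 in replicate 1 and 14.9 in replicate 2 (percentiles 69.4 and 16.7), so its place in the order depends on the replicate. Both transcript starts of RefSeq, 1.31 kb apart, were covered by both histone marks. A second domain with both marks lay 6.997 to 12.0 kb after the TSS, just past the end of the gene, where RefSeq has no TSS. There H3K4me3 reached 54.4 and 12.4, close to the values at the gene's own TSS in each replicate, and H3K27ac reached 12.2 and 20.1. On the other side, the TSS of FAF1 at 7.23 kb upstream had H3K4me3 at 66.1 and 32.9. A CTCF peak about 1 kb before the TSS of CDKN2C, at 20.2 and 18.9, held no CTCF motif.

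RB1, the retinoblastoma protein, lies at chr11:19186754-19317642 on the minus strand and is the longest of the 8, at 130.9 kb. By percentile its H3K4me3 replicates were the closest of the 8, with a fold enrichment of 69.8 and 34.9 at percentiles 85.7 and 85.6. Its peaks were narrow beside those of the inhibitors, at 3.33 and 4.29 kb for H3K4me3 and 4.19 and 4.19 kb for H3K27ac. Its TSS also lay in the sequence richest in CpG, with 75.4% G and C and an observed over expected CpG ratio of 0.999 within the 1 kb centred on the TSS. Inside the gene, 95.4 to 99.9 kb from the TSS, lay an H3K4me3 region at 42.2 and 32.7, next to the start of LPAR6 at 101.3 kb, a gene nested in RB1 on the other strand. H3K27ac at that place reached 34.8 and 30.4, above the 22.6 at the TSS of RB1 in replicate 1 and below the 33.2 in replicate 2. Its window, the longest at 230.9 kb, had the smallest share covered of the 8, with 3.31% and 4.05% for H3K4me3 and 6.997% and 6.35% for H3K27ac. In number it held 10 and 12 H3K27ac peaks, more than the 4 and 4 of CDKN2C.

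**Figure D2:**
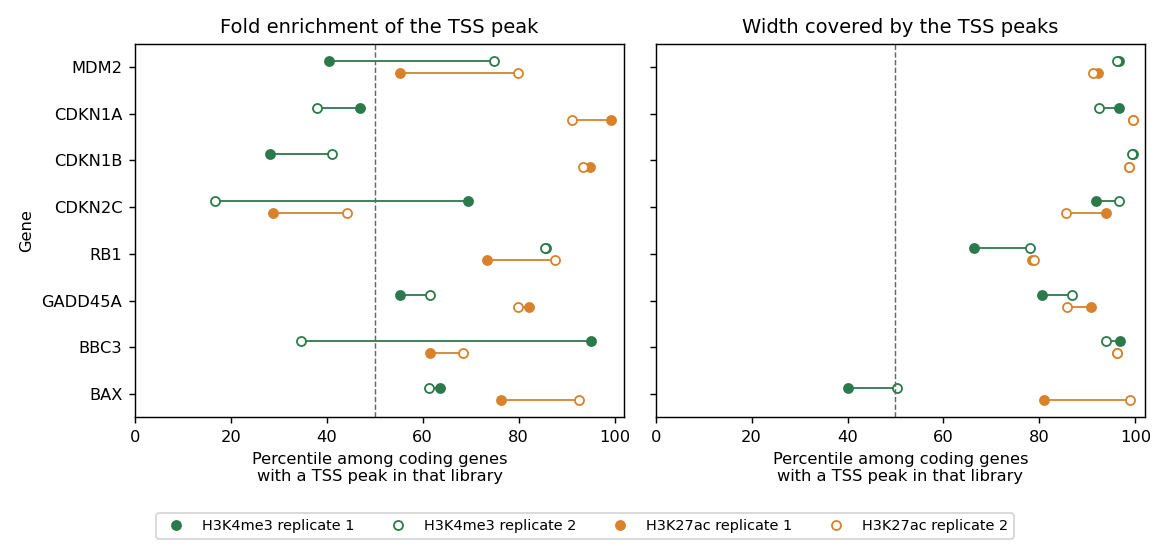
Percentile of the TSS peak among protein-coding genes with such a peak in the same library, by fold enrichment (left) and by covered width (right), for H3K4me3 (green) and H3K27ac (orange), with replicate 1 filled, replicate 2 open and a dashed line at the median. By H3K4me3 width, CDKN1B, MDM2, BBC3, CDKN1A and CDKN2C were above percentile 91 in both replicates, while the fold enrichment of MDM2, CDKN2C and BBC3 fell on both sides of the median.

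GADD45A, a stress-induced protein of growth arrest and DNA repair, lies at chr6:144940702-144944089 on the minus strand. H3K4me3 covered 4.12 and 5.16 kb at a fold enrichment of 54.4 and 28.1 (percentiles 55.3 and 61.6). H3K27ac covered 6.41 and 5.15 kb at 25.9 and 29.1 (percentiles 82.2 and 79.8). Its gene of 3.39 kb was thus covered nearly from end to end by both marks, including intron 3 with its p53-like match. No other TSS lies in the window, yet it held 11 shared H3K27ac regions, 10 of them away from the promoter, all with GADD45A as the nearest protein-coding TSS. The strongest of these 10 lay 45.7 to 50.3 kb downstream in an intron of GNG12, at 15.0 and 21.1. The next lay 11.2 to 9.44 kb upstream, at 13.5 and 14.8, and had H3K4me3 at 12.9 and 10.2 as well. Its promoter was the only one of the 8 with a CCAAT box, and the 250 bases before the TSS (chr6:144944090-144944339, minus strand) are shown with that box and 3 GC boxes in capitals.
GADD45A promoter: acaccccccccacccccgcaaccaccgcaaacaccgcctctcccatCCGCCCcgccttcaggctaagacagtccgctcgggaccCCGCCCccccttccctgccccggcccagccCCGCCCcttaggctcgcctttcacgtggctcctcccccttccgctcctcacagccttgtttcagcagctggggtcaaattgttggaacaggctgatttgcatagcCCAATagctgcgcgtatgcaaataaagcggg

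BBC3 encodes PUMA, a trigger of apoptosis that binds the BCL2 proteins, and lies at chr6:53037103-53046902 on the minus strand. Its annotated 5′ end was not where H3K4me3 began. The peak started 31 bases after the TSS in replicate 1 and 442 bases after it in replicate 2, and extended to 7.10 and 7.06 kb. RefSeq gives 4 transcript starts, and those 1.065 and 1.93 kb into the gene were covered by H3K4me3 in both replicates. The base composition of these starts also differed, with an observed over expected CpG ratio of 0.303 at the annotated 5′ end, below which lay 21.9% of protein-coding genes. At the start 1.065 kb into the gene the ratio was 0.902, above that of 90.2% of them. The H3K4me3 level differed between replicates, at 78.2 and 21.3, and by percentile (95.1 and 34.7) this was the widest gap of the 8. The summit of H3K27ac lay far inside the gene, 5.86 and 5.89 kb after the TSS, at 19.3 and 24.8.

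The strongest H3K27ac around BBC3 was upstream of it, at a place where RefSeq has no TSS. There an H3K27ac region of 6.86 kb, from 9.93 to 3.06 kb before the TSS, reached 50.4 and 65.6. These values were over those of the TSS in both replicates. Within it lay H3K4me3 at 59.3 and 21.6, 9.30 to 7.35 kb upstream, and a CTCF peak at 32.1 and 44.3. The TSSs of CCDC9 and INAFM1, at 18.3 and 33.0 kb upstream, carried both histone marks too.

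BAX, which opens the outer membrane of mitochondria in apoptosis, lies at chr6:54222341-54228150 on the plus strand. It had the narrowest H3K4me3 peak of the 8, at 2.46 and 2.92 kb, close to the median of protein-coding genes (percentiles 40.1 and 50.2). Its fold enrichment was 58.5 and 28.0 (percentiles 63.6 and 61.3). H3K27ac differed in extent between replicates, at 4.51 kb in replicate 1 and 15.7 kb in replicate 2. The longer one ran on to 15.6 kb after the TSS and so joined the peak at FTL, whose TSS lies at 8.78 kb. BAX had by far the most neighbours, with 9 other TSSs in its window, and all 9 carried H3K4me3 in both replicates. Of its 10 shared H3K4me3 regions away from the promoter, 6 lay at other protein-coding TSSs, so the high coverage of its window, 29.2% and 27.4%, is shared with them.

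**Figure D3:**
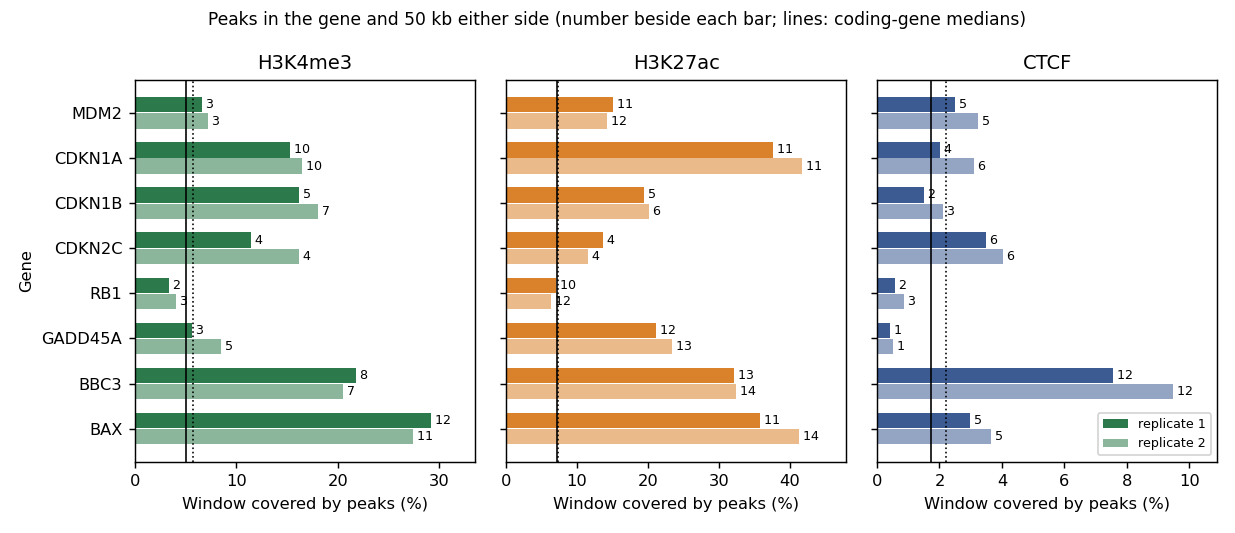
Percentage of each gene and the 50 kb on either side that was covered by peaks, with 1 bar per replicate, the number of peaks beside each bar and vertical lines at the median of protein-coding genes (solid for replicate 1, dotted for replicate 2). CDKN1A and BAX had the largest H3K27ac coverage, and BBC3 stood out for CTCF with 12 peaks in each replicate.

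Across their windows, the 8 genes held on average 5.88 and 6.25 H3K4me3 peaks in the 2 replicates, against 4.52 and 4.72 for protein-coding genes. For H3K27ac the means were 9.62 and 10.75 against 7.13 and 7.88, and for CTCF 4.62 and 5.12 against 4.11 and 4.48. The coverage differed more than the number, with medians over the 8 of 13.3% and 16.3% against 5.03% and 5.70% for H3K4me3, and of 20.3% and 21.7% against 7.14% and 7.38% for H3K27ac. Windows differ in gene length and in neighbours, from 0 other TSSs at MDM2 and GADD45A to 9 at BAX, and their part in these values was not tested. Of 58 shared H3K27ac regions away from the 8 promoters, 8 lay at another protein-coding TSS, and for 27 of the other 50 the nearest protein-coding TSS was the gene itself. Of these 58 regions, 25 also overlapped shared H3K4me3. These counts of regions were not made for other genes, so they describe the 8 windows alone.

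The counts at the TSS given above are of peak intervals, whose summits can lie outside the 1 kb. Counted by summit, 3 of the 8 genes had H3K4me3 within 1 kb of the TSS in both replicates, against 52.2% of protein-coding genes, and 4 had H3K27ac, against 51.2%. CTCF summits lay within 1 kb at 1 of the 8, MDM2, against 15.3%. When the window was widened to 5 kb, CTCF peaks were near 4 of the 8 in both replicates, against 35% of protein-coding genes, since CDKN1A and BBC3 each have one just inside the gene.

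CTCF sites were read for direction, because loops tend to form between sites whose motifs point towards each other. A motif of 19 bases was learned from the 600 strongest peaks on chromosomes other than those of the 8 genes. It was then found in 90.2% of 8281 shared CTCF regions on chromosomes 5, 6, 7 and 11, and in 11.7% of control sequences 1 kb away. In the 8 windows 34 of 38 shared CTCF regions held it. The consensus and the matches nearest to 4 promoters are shown, with capitals for the positions that vary least and that match the consensus there, written in the direction of the motif.
Consensus: tggCCActAGagGGcgcta
MDM2, exon 1, along the gene (chr5:33105743-33105761): cggaCAgtAGggGGcgcgc
CDKN1A, intron 1, against the gene (chr7:32356607-32356625): gggCCAgaAGggGacgctg
CDKN1A, 8.43 kb before the TSS, along the gene (chr7:32346323-32346341): acaaCtccAGggGGcacta
BBC3, intron 1, against the gene (chr6:53045215-53045233): tggCCgccAGggGGcgctg
BBC3, 8.83 kb before the TSS, along the gene (chr6:53055699-53055717): ttgCCgctcGggGGcagca
BAX, 5.65 kb before the TSS, along the gene (chr6:54216666-54216684): tggCCAccAGgtGGcaggg

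At CDKN1A, BBC3 and BAX the nearest motifs on either side of the 5′ end of the RefSeq gene were convergent, pointing towards it and each other. These are 3 of the 6 genes with a motif on both sides, against 27.4% of the 11477 protein-coding genes with motifs on both sides, and 6 genes are too few to read a difference from. The CDKN1A pair lay 8.43 kb upstream and 1.84 kb downstream, at fold enrichments of 6.16 and 7.09 for the upstream peak and of 27.8 and 40.5 for the downstream one. The BBC3 pair lay 8.83 kb upstream and 1.66 kb downstream of the 5′ end. It did not flank the BBC3 transcript start at 1.93 kb, where the nearest motifs on the 2 sides pointed away from each other. The downstream peak of BBC3, at 24.1 and 30.6, came within 1 kb of the TSS in replicate 2 alone. The BAX pair lay 5.65 kb upstream and 15.0 kb downstream. At MDM2, CDKN1B and CDKN2C the nearest motifs on the 2 sides pointed the same way. Motifs were sought only in shared CTCF regions, and GADD45A had no such region upstream in its window. RB1 had a region 8.46 kb upstream, at 15.2 and 17.4, in which no motif was found. BBC3 had the most CTCF, with 7.54% and 9.48% of its window covered, at percentiles 99.6 and 99.5 of protein-coding genes. GADD45A had the fewest, with 1 peak, 20.7 kb downstream, at 6.42 and 6.97.

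**Figure D4:**
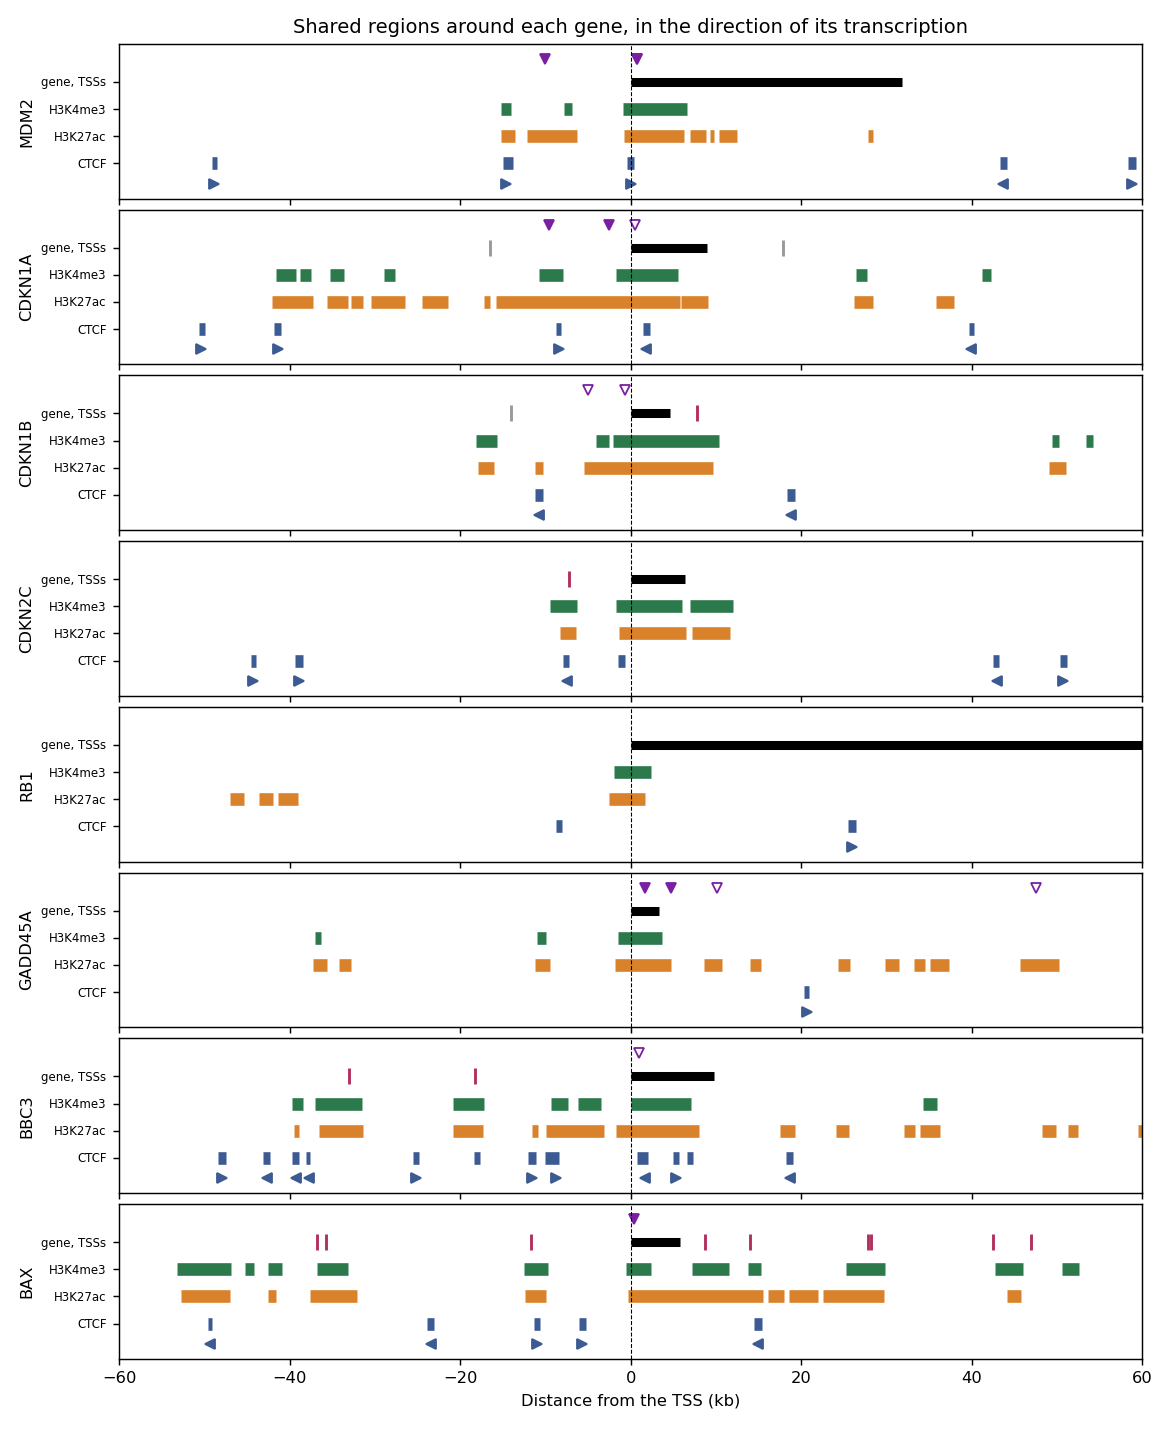
Maps of the 8 genes from 60 kb before to 60 kb after the TSS (x axis, kb, transcription to the right), with the gene in black, regions of both replicates for H3K4me3 (green), H3K27ac (orange) and CTCF (blue) and arrowheads for the direction of CTCF motifs. Purple triangles are p53-like matches in marked regions, filled for 2 or fewer differences, and small bars in the gene row are other TSSs, red with H3K4me3 in both replicates and grey without. Triangles lie over the promoter region of MDM2, CDKN1A, CDKN1B, GADD45A, BBC3 and BAX. The arrowheads on either side of the 5′ ends of CDKN1A, BBC3 and BAX point inwards.

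In the promoter sequences, GGGCGG occurred on either strand within 250 bases before to 50 after the TSS in 8 of the 8, compared with 50.7% of 19487 protein-coding promoters. CCAAT occurred in 1, against 35.3%, and TATAAA in 0, against 10.8%. None of these strings can lie inside another.

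Other genes of the pathway, listed by role, were mostly marked at the TSS too. H3K4me3 was present in both replicates at 10 of 11 regulators of p53, 10 of 11 arrest genes, 12 of 12 apoptosis genes, 10 of 10 other p53 targets and 10 of 10 partners of the inhibitors, against the 68.9% given above. Within each role, genes were ordered by the mean of their 2 H3K4me3 percentiles, and the values given are fold enrichments. Among the regulators, the phosphatase gene PPM1D ranked highest, at 62.4 and 31.0, and the p53 relative TP63 had no H3K4me3 peak. Among arrest genes, CDKN2D was highest, at 85.1 and 36.3. CDKN2B, an inhibitor of the same family as CDKN2C, had no H3K4me3 peak although its H3K27ac reached 20.01 and 25.9. Among apoptosis genes the survival factor MCL1 was highest, at 68.8 and 42.6, and the pore-forming BAK1 lowest, at 36.5 and 15.7. Of the other targets PHLDA3 was highest, at 83.9 and 36.1, and RRM2B, a subunit of ribonucleotide reductase, lowest by mean percentile, at 47.6 and 23.9, although others had a lower fold enrichment in a single replicate. Of the partners E2F4 was highest, at 98.6 and 40.6, and E2F1 lowest, at 43.7 and 16.5. The median H3K4me3 width of these roles lay between percentiles 46.4 and 86.6, below the 94.2 and 93.2 of the 8 genes, a difference that was not tested. Wide H3K4me3 was not particular to the 8, since the fibroblast markers stood at median percentiles of 95.1 and 96.0. The lists held 57 names, of which 54 were protein-coding genes in the annotation used.

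Finally, the genes with the pattern most like each of the 8 were sought by the mean absolute difference in percentile of fold enrichment over the 6 libraries, with 0 for no peak. CPEB4 was nearest to CDKN1B, at 0.584 percentile points, and HCFC1 and TMEM187, which share a promoter region, to CDKN1A, at 0.691. PTK2 was nearest to RB1 at 1.24, MBD5 and ORC4 to GADD45A at 1.09, and CCDC12 to BAX at 1.17. Each of these 5 had between 71 and 264 protein-coding genes within 5 points. MDM2, CDKN2C and BBC3 had none, their nearest being COPZ1 at 7.82, ZDHHC13 at 5.91 and TANGO2 at 5.20. MDM2, CDKN2C and BBC3 are also the genes with a CTCF peak at the TSS, BBC3 in replicate 2 alone. The other 5 had no such peak and scored 0 in both CTCF libraries. CTCF peaks at the TSS occurred at 18.4% and 22.5% of protein-coding genes, so most genes scored 0 there too. The part of this scoring in the numbers of near genes was not tested.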

How the data were processed

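ChIP-seq of H3K4me3, H3K27ac and CTCF in untreated PEFs gave 6 libraries, 2 per mark, grouped by the sample labels. Per the study's methods the authors mapped reads with Bowtie2, kept uniquely mapped pairs, removed duplicates and called narrow peaks per library with MACS2. Sscrofa11.1 is named in the submitters' processing notes, and tool versions are not given in the sources used here. The deposited lists give each peak its enrichment as a fold (ratio) against control, with its q-value and p-value as −log10. The deposited score, 10 times the −log10 q-value as a whole number, was not used further, and p-values were not used. The highest q-value was between 0.0432 and 0.0499, above the limit the methods state, and lists were analysed as deposited, without chromosome Y and unplaced scaffolds.

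Peaks were intersected with RefSeq genes (annotation of Sscrofa11.1, pseudogenes left out) in Python 3.11.15 with numpy and pandas. A peak was at a TSS when it overlapped 1 kb on either side. Transcript starts other than the 5′ end of the gene were examined for the 8 genes only. Shared regions merged peaks of both replicates that overlapped by at least 1 bp. Promoter sequences and sites were read from the same assembly. A CTCF motif was fitted by expectation maximisation and matched at p under 0.0001 per position. The motif fit, the p53-like search and the overlap counts were checked on simulated data, and the merging of replicates on a worked example. With 1 condition and 2 libraries per mark no test was run, and fold enrichments are given per replicate. A narrow-peak caller can split or join a wide domain, which affects both the number and the width of peaks.

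The genes and lists were chosen with earlier results of these data known. Named pathway genes are those highest and lowest by mean H3K4me3 percentile in each list and those without a peak. Of the fibroblast markers, COL1A1 and VIM are given as examples and FN1 as the lowest by mean H3K4me3 percentile. CDKN2A and TNFRSF10B were not matched by symbol and CDK6 is annotated as a lncRNA. Read depth, Hi-C and input were not used here.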

Additional observations from a re-analysis of the deposited data

How the results depend on the processing

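Of 38 combinations of a value and an alternative, 27 stayed within 1.5 times the count or within 1 SD between replicates and 11 did not. Another 12, means or percentiles from 1 replicate alone, are left out of this tally, since with 2 replicates each lies within 1 SD of their mean by construction. The alternatives were peaks with a −log10 q-value of at least 5, peaks seen in both replicates, summits in place of intervals, 5 kb in place of 1 kb, any RefSeq transcript start, other sets of genes for the ranks and each replicate alone. Counting summits lowered the genes with H3K4me3 at the TSS from 8 to 3, with H3K27ac from 8 to 4 and with CTCF from 2 to 1, while 5 kb raised CTCF to 4. With q-values of at least 5 on the −log10 scale, the mean number of H3K4me3 peaks per gene fell from 6.06 ± 0.265 (SD, n = 2) to 5.62, and that of H3K27ac from 10.2 ± 0.795 to 7.56. Peaks overlapping the other replicate gave 5.44 and 8.81. The median percentile of the 8 genes by H3K4me3 fold enrichment, averaged over replicates, was 55.3 ± 5.82 and became 62.3 with q-values. Ranked among genes with both histone marks, an alternative chosen after seeing the data, it was 47.9, and the median width percentile of 93.7 ± 0.659 was 92.7. Leaving out a replicate gave 2 or 3 genes with CTCF at the TSS and 8 for each histone mark. No paired analysis was possible because the results are counts and ranks in 1 condition, with no test.

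Peak lists without reads do not show how deep each library was. Peak number and width depend on the caller. Neither RNA nor p53 binding was measured in these lists.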
